A study of Mus musculus with 864 samples.

Results

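The 7 genes Scn1a, Scn3a, Scn7a, Scn8a, Scn9a, Scn10a and Scn11a, which encode pore-forming alpha subunits of voltage-gated sodium channels, were followed through single sensory neurons of the mouse. They were taken by symbol from the 23281 genes of the table. Each was held by 1 row of the table. Levels were read in 694 of the 799 wells that held 1 cell, those with 1000 or more genes above 0.

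A voltage-gated sodium channel opens when the membrane depolarises and carries the inward current of the action potential upstroke. Its alpha subunit forms the pore and the voltage sensor, and beta subunits, fibroblast growth factor homologous factors and ankyrins set its gating and its place in the membrane. In sensory ganglia the alpha subunits are known for their division between fibre classes: Nav1.8 and Nav1.9 are tetrodotoxin-resistant channels of small pain-sensing neurons, Nav1.7 is a pain-pathway channel found more widely, and Nav1.1 and Nav1.6 are known from large myelinated neurons.

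The cells came from lumbar dorsal root ganglia of 6 to 8 week old C57/Bl6 mice, for which the labels name no genetic or drug treatment, were dissociated with enzymes and were picked by hand under a microscope. Libraries counted the 5′ ends of transcripts. The unit of replication was the preparation, cells of 1 sex from 1 picking session, and there were 5. Session A gave males and females (30.8% and 6.48% of kept cells), session B gave males (25.4%), and session C gave males and females (26.5% and 10.8%). Sessions A and B were picked at room temperature and session C with cooling. The labels name no animal and do not say whether ganglia of several animals were pooled, so p-values cover only these preparations. Between neuron types they measure how the differences vary from preparation to preparation. For cooling and sex they rest on a spread between preparations that limma estimates partly from other genes, with 2 and 1 residual degrees of freedom. Median reads per kept cell in that order were 15421, 15597, 198656, 1526080 and 2573220, so detection is given both as deposited and after each cell was thinned to 5000 reads.

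Neuron types were read as gates, each a range of 1 marker gene's level and not a cell type. A cell was Th-, Mrgprd-, Tac1- or Pvalb-gated when it passed the cut of that gene (a share of 0.25 of its 95th percentile over kept cells) and no other of these 4, and Nefh-gated when it passed the Nefh cut alone. This gave 405 gated cells, of them 99 Mrgprd-gated, 59 Tac1-gated, 47 Pvalb-gated and 92 Nefh-gated, and the rest, 15.6% of kept cells, Th-gated. A further 29% of kept cells passed no cut, 45 cells passed several of the 4, and 43 had more reads of non-neuronal than of pan-neuronal markers. Th marks low-threshold C-fibre mechanoreceptors, Mrgprd non-peptidergic nociceptors, Tac1 peptidergic nociceptors, Pvalb proprioceptors and some mechanoreceptors, and Nefh neurons with myelinated axons. Near the cuts, within a factor of 1.5, lay 33 of the Th-gated, 14 of the Mrgprd-gated, 6 of the Tac1-gated, 3 of the Pvalb-gated and 24 of the Nefh-gated cells.

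The gates were checked against marker lists with the 5 gate genes taken out. The summed level of the other 7 myelinated-neuron markers had a median of 6625 RPM (reads per 1000000) over Pvalb-gated and 3859 over Nefh-gated cells, and of 379 to 685 over the other gates. Nefm carried most of that sum, with means of 6395 and 3764 RPM in Pvalb- and Nefh-gated cells. Ntrk2 alone of these 7 went the other way in Pvalb-gated cells. Its mean there was 11.22 RPM, against 97.9 in Nefh-, 41.57 in Th-, 23.2 in Tac1- and 7.13 in Mrgprd-gated cells. The other 8 non-peptidergic markers had a median of 1509 RPM in Mrgprd-gated cells and of at most 113.7 in the other gates. Of these 8, Nppb and Sst alone had higher means elsewhere, 27.04 and 22.4 RPM in Tac1-gated against 2.91 and 4.94 RPM in Mrgprd-gated cells. The other 6 peptidergic markers had a median of 7421 RPM in Tac1-gated cells and of at most 674 in the other gates. That highest value was in Mrgprd-gated cells, 96.0% of which held Calca. The other 4 measured Th-neuron markers had a median of 1251 RPM in Th-gated cells and of at most 90.01 in the other gates. Of the 45 cells over several cuts, 34 were from session A males, 11 from session B males and none from session C, and 39 were over the Tac1 cut. Tac1-gated cells reached 3 per preparation only in session A, B and C males.

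Scn10a and Scn11a encode Nav1.8 and Nav1.9, and they were highest in Mrgprd-gated cells, intermediate in Tac1- and Th-gated cells, low in Nefh-gated cells and near 0 in Pvalb-gated cells. Mean Scn10a over Mrgprd-gated cells was 1507, 1269, 832, 526 and 863 RPM in the 5 preparations in the order above. Over Pvalb-gated cells it was 7.29, 0, 12.2, 0.197 and 0.155 RPM. Every Mrgprd-gated mean lay above every Pvalb-gated mean, and the means over preparations were 999.5 ± 388 (SD, n = 5) and 3.96 ± 5.54 RPM. Scn10a in Th-gated cells was 519, 239.4, 371, 233.4 and 302 RPM, and in Tac1-gated cells 542, 317 and 413 RPM in session A, B and C males. Th- and Tac1-gated means overlapped. Mrgprd- and Tac1-gated means overlapped too, with session C males at 526 RPM in the former below session A males at 542 RPM in the latter. In Nefh-gated cells Scn10a was 105.4, 0, 92.2, 72.4 and 106.6 RPM, with session A females, 5 cells, alone at 0.

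Scn11a followed nearly the same order. It was 1003, 999, 839, 639.9 and 792 RPM in Mrgprd-gated cells and 2.84, 0, 6.06, 8.79 and 0 RPM in Pvalb-gated cells. In Th-gated cells it was 238.7, 128.01, 168.6, 227.1 and 310.0 RPM, in Tac1-gated cells 168.03, 309 and 154.9 RPM, and in Nefh-gated cells 31.9, 0, 58.5, 33.9 and 6.49 RPM. The Mrgprd-gated means did not overlap those of any other gate. Between genes, Scn10a and Scn11a gave 39.4% ± 6.0 and 35.4% ± 4.6 (SD, n = 5) of the summed RPM of the 7 genes in Mrgprd-gated cells, on a scale of 5′-end reads that is not divided by transcript length.

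**Figure D1:**
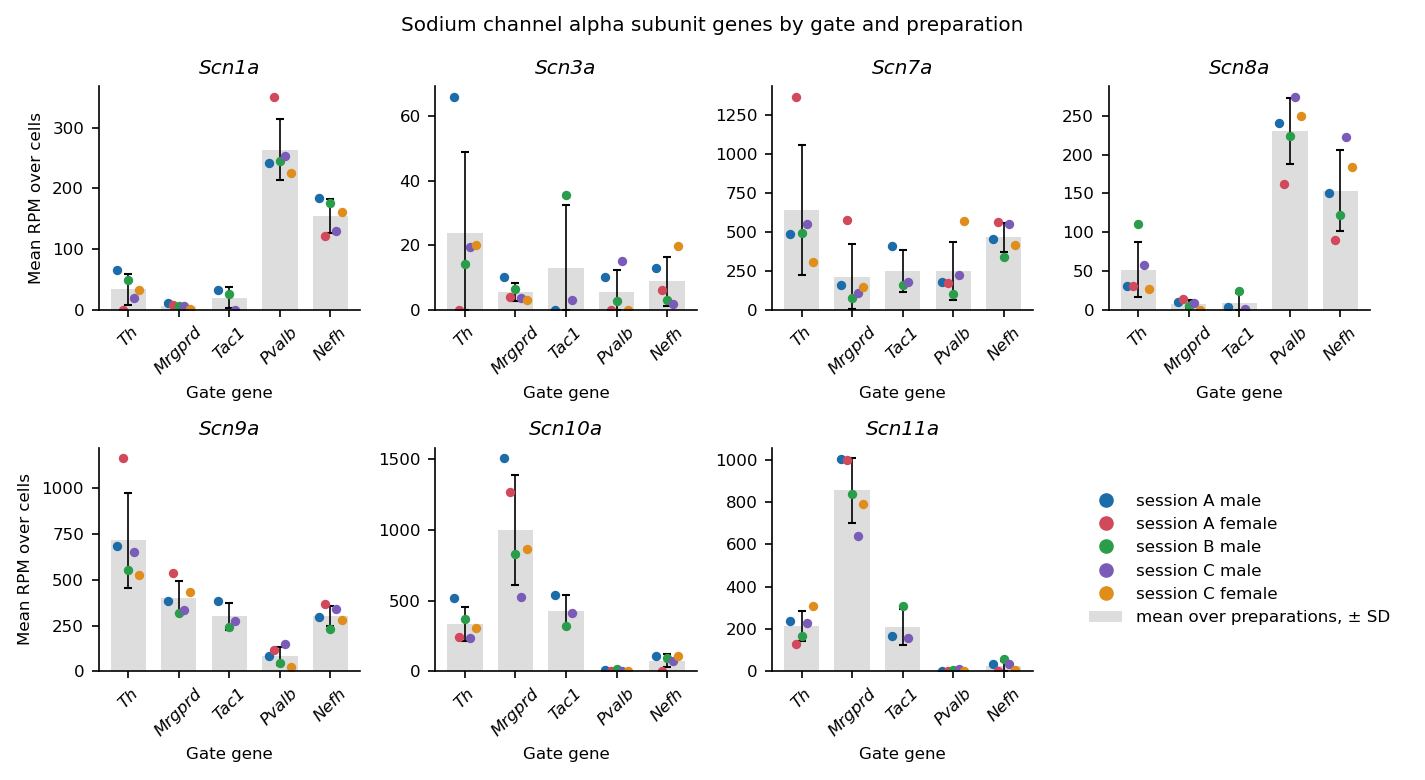
Mean RPM of each gene over the cells of each gate (points, 1 per preparation; bars and lines, mean ± SD over the preparations). Scn10a and Scn11a stand highest in Mrgprd-gated cells, Scn1a and Scn8a in Pvalb- and Nefh-gated cells, and the session A female points of Scn7a and Scn9a lie above the others in Th-gated cells.

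Each gate was set against the average of the remaining 4 in limma, on log2(mean RPM + 5) over 23 means of 1 gate and 1 preparation, with the preparation as a block and p-values adjusted by Benjamini-Hochberg over 9834 genes. Because of the pseudocount of 5 RPM, these log2 differences understate the change of low genes. In Mrgprd-gated cells 5 of the 7 genes passed an adjusted p of 0.05, against 11.2% of all genes tested. Scn11a was higher by log2 4.11 ± 0.36 (SE; adjusted p = 4.64e-11) and Scn10a by 3.52 ± 0.40 (adjusted p = 1.07e-07), the 2 of the 7 that rose, where 5.63% of all genes did. The 3 that fell, where 5.56% of all genes did, were Scn1a (log2 -2.62 ± 0.42), Scn8a (-2.501 ± 0.39) and Scn7a (-1.10 ± 0.30). The calls on Scn8a and Scn7a ended in edgeR's quasi-likelihood test on recovered reads (adjusted p = 0.0763 and 0.185). That on Scn7a ended in limma without the males of session A, B or C (adjusted p = 0.0786, 0.108 and 0.0954), with no preparation block (0.0725), with no filter on low values (0.0948) and with the gate cut at 0.5 of the percentile (0.0619).

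Promoter sequences of the 2 nociceptor channel genes are given because they are neighbours on chromosome 9 and because of all 21 pairs of the 7 genes they had the highest correlation over the 23 means. That of Scn8a, from the opposite side of the pattern, is set beside them. The sequences are RefSeq's for build GRCm38.p6, from 250 bases before to 30 bases after the start, on the gene's strand, and the deposited reads were mapped to another build. Capitals mark a match to the E-box CAGCTG. Scn10a is at chr9:119719003-119719282, minus strand. Scn11a is at chr9:119825427-119825706, minus strand. The first of 2 Scn8a entries is at chr15:100870395-100870674, plus strand.
Scn10a: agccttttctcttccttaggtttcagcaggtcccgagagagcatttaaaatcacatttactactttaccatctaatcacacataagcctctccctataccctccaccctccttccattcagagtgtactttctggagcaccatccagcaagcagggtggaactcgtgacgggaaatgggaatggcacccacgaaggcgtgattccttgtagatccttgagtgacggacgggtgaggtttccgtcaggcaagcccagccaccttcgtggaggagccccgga
Scn11a: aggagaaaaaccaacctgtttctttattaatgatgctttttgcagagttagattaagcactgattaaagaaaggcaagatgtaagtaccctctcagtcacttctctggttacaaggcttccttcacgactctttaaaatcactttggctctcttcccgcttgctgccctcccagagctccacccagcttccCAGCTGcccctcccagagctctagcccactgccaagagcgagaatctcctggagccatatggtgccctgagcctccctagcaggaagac
Scn8a: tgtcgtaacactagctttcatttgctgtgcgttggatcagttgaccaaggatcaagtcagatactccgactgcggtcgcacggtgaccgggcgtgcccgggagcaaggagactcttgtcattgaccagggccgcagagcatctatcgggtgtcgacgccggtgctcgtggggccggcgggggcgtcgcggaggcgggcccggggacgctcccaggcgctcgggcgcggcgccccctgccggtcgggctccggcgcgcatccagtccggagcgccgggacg

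Across the 7 entries of 6 of the genes, none held the Runx core TGTGGT, the TATA box TATAAA or the homeodomain core TAATTA on either strand, which 15.6%, 13.1% and 5.09% of 32851 mouse promoters of this length held. CAGCTG was in the entries of Scn7a and Scn11a, 1 match each, and in 14.9% of all promoters. No match overlapped that of another motif. The first Scn8a entry had 37 CpG dinucleotides, more than 95.9% of promoters, and the second 11, more than 60.7%, against 10 for Scn10a, 8 for Scn9a, 4 for Scn1a, 3 each for Scn7a and Scn11a and a median of 6 over all promoters. These are counts of letters, and binding of factors was not measured.

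In Pvalb-gated cells 5 of the 7 genes passed, against 16.7% of all genes. Scn10a was lower by log2 -5.14 ± 0.40 (adjusted p = 3.14e-11), Scn11a by -4.33 ± 0.36 (5.06e-12) and Scn9a by -2.44 ± 0.22 (5.44e-11), all by limma, and 8.87% of all genes were lower. Scn1a and Scn8a were higher there, by 3.18 ± 0.42 (adjusted p = 3.34e-07, limma) and 2.95 ± 0.39 (3.37e-07), and 7.84% of all genes were higher. In Nefh-gated cells 4 of the 7 passed, against 5.3%. The 2 that rose were again Scn1a (2.24 ± 0.42, adjusted p = 3.71e-04, limma) and Scn8a (2.19 ± 0.39, 2.02e-04), where 3.84% of all genes rose. The 2 that fell were Scn10a (-1.64 ± 0.40, adjusted p = 0.00975, limma) and Scn11a (-2.47 ± 0.36, 7.45e-06), where 1.45% of all genes fell. Both of these lower calls ended with the gate cut at 0.1 of the percentile (adjusted p = 0.924 and 0.341) and in edgeR (0.997 and 0.15), and that on Scn10a also without session A females (log2 -0.88, adjusted p = 0.0603), with a pseudocount of 1 RPM (0.227), with no filter on low values (0.088), with 2000 or more genes per cell (0.421) and without session A as a whole (log2 -0.74, adjusted p = 0.436).

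Scn1a and Scn8a, which encode Nav1.1 and Nav1.6, the latter the channel of nodes of Ranvier, were highest in Pvalb-gated and next in Nefh-gated cells. Scn1a was 242.6, 351, 245.8, 253 and 224.6 RPM over Pvalb-gated cells and 184.2, 120.9, 176.6, 130.4 and 160.9 RPM over Nefh-gated cells in the 5 preparations. It was 66.3, 0, 49.6, 19.4 and 32.8 RPM in Th-gated cells and at most 10.5 RPM in any preparation of Mrgprd-gated cells. Pvalb- and Nefh-gated means lay above all means of the other 3 gates. Scn8a was 241.003, 161.6, 223.9, 275 and 249 RPM in Pvalb-gated and 150.4, 89.7, 122.2, 222.1 and 183.8 RPM in Nefh-gated cells. In Th-gated cells it was 30.7, 30.5, 110.9, 57.3 and 26.8 RPM, and the session B male value overlapped the range of Nefh-gated cells. Mrgprd-gated cells held at most 14.1 RPM of it in any preparation, and Tac1-gated cells 3.14, 23.6 and 0.556 RPM.

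In Tac1-gated cells none of the 7 was called higher, where 1.96% of all genes were, and 2 were lower, where 2.28% were, 4.24% in either direction. Those 2 were Scn8a (log2 -2.79 ± 0.50, adjusted p = 2.81e-04, limma) and Scn1a (-1.93 ± 0.53, 0.0273). With 3 preparations in this gate, the Scn1a call ended without any 1 of them (adjusted p = 0.0863, 0.0737 and 0.537 without session A, B and C males), and the Scn8a call without session C males (0.07) and in edgeR (0.348). The Scn1a call ended in edgeR too (0.124), and in 6 of the other alternatives in limma, among them that with no preparation block (0.0919). Scn10a there differed by log2 1.66 ± 0.50 with an adjusted p of 0.0531, on the other side of the threshold in 6 of the alternatives tried, among them without session A females (8.1e-04).

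**Figure D2:**
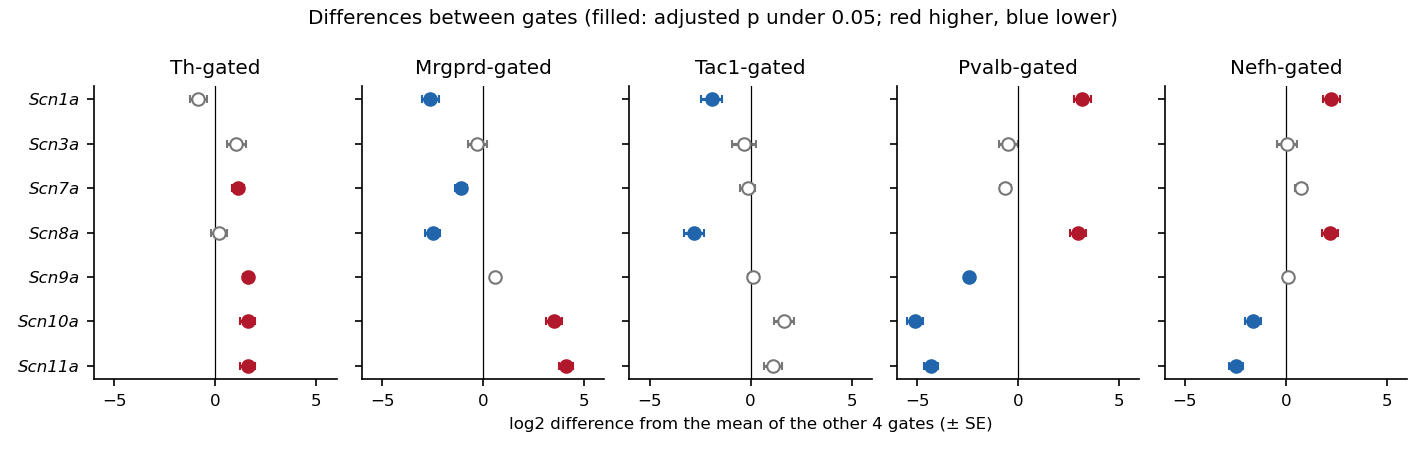
Differences in log2(mean RPM + 5) of each gate from the mean of the other 4 gates, with SE. Filled points passed an adjusted p of 0.05. Scn10a and Scn11a lie to the right for Mrgprd-gated and to the left for Pvalb-gated cells, Scn1a and Scn8a the other way round, and no Scn3a point is filled.

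Scn9a, which encodes Nav1.7, was found in all 5 gates and was lowest in Pvalb-gated cells. It was 688, 1166, 552, 651 and 528 RPM in Th-gated cells, 383, 539, 319.5, 333 and 436 RPM in Mrgprd-gated cells and 296, 369.8, 229.7, 342 and 280.9 RPM in Nefh-gated cells. In Tac1-gated cells it was 384, 242.2 and 276 RPM. In Pvalb-gated cells it was 83.7, 117.6, 45.4, 146.8 and 22.1 RPM, below every mean of the other gates. In Th-gated cells 4 of the 7 genes were called higher, where 5.91% of all genes were, and none lower, where 3.41% were, 9.31% in either direction. Scn9a was higher by log2 1.59 ± 0.22 (adjusted p = 1.83e-06, limma), Scn11a by 1.59 ± 0.36 (0.00206), Scn10a by 1.59 ± 0.40 (0.00786) and Scn7a by 1.12 ± 0.30 (0.0136). This contrast averages log2 values, in which the near-0 Pvalb-gated means weigh heavily. Scn10a averaged 333 RPM in Th-gated cells, against 999.5 in Mrgprd-, 424 in Tac1- and 3.96 in Pvalb-gated cells. For Scn11a these were 214.5, 855, 210.5 and 3.54 RPM, so Th-gated cells were not the highest for either gene. The calls on Scn10a and Scn11a ended with the gate cut at 0.1 of the percentile (adjusted p = 0.202 and 0.107), and that on Scn10a also in edgeR (0.0743), with 2000 or more genes per cell (0.171), with a pseudocount of 1 RPM (0.0753) and with no filter on low values (0.0781). The call on Scn7a ended in limma without session B males (0.131), session C males (0.0954) or session A as a whole (0.0841), with no filter (0.101) and with means centred on the median gene (0.0657).

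Scn7a encodes the sodium-level sensor Nax, an atypical member of the family that is not gated by voltage in the usual way. It was found in every gate, at 489, 1368, 491, 553 and 305 RPM in Th-gated cells and 455, 563, 340.1, 549 and 414 RPM in Nefh-gated cells. Mrgprd-gated cells had 157.9, 577, 74.1, 104.5 and 147.5 RPM, and Pvalb-gated cells 175.05, 173.5, 102.1, 224.7 and 571 RPM. By these means, session A females stood above the others in Th-gated (9 cells) and Mrgprd-gated cells (10 cells), and session C females, 3 cells, in Pvalb-gated cells. The median over the Mrgprd-gated cells of session A females was 107.8 RPM and the highest cell held 2867 RPM. Tac1-gated cells had 406, 161.4 and 176.5 RPM. Nax is also known from Schwann cells, and the summed Schwann cell markers had a median of 1304 RPM in Th-gated cells against 349, 288, 53 and 272 in Mrgprd-, Tac1-, Pvalb- and Nefh-gated cells. Pmp22 carried most of that sum, with a mean of 1267 RPM in Th-gated cells, and Mbp was above 0 in 76.9% of Th-gated cells, against 18.2%, 32.2%, 29.8% and 39.1% in the other gates in that order. Sox10 was above 0 in 3.7% of Th-gated cells and Prx in 2.78%. In the Th-gated cells of session A females, the high preparation, the mean of this sum was 1703 RPM, within the 1126 to 1814 RPM of the others, and in their Mrgprd-gated cells it was 192.2 RPM, below the 375 to 508 RPM of the other preparations. In the 43 cells with more non-neuronal than pan-neuronal reads, all of them from sessions B and C, Scn7a was above 0 in 53.5%, and in 16.3% when thinned, against 81.6% of Th-gated cells when thinned. The part of glial RNA in the Scn7a levels was not tested.

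Scn3a, which encodes Nav1.3, a channel known from embryonic neurons and from injured adult ones, was the lowest of the 7 in 3 of the gates by its mean and passed in no contrast. It was 66.1, 0, 14.1, 19.3 and 19.9 RPM in Th-gated cells, 10.01, 4.03, 6.26, 3.53 and 3.13 RPM in Mrgprd-gated cells and 0, 35.6 and 3.02 RPM in Tac1-gated cells. Pvalb-gated cells had 10.3, 0, 2.73, 15.1 and 0.0387 RPM and Nefh-gated cells 13.04, 6.20, 2.89, 1.89 and 19.9 RPM. All gates overlapped. The highest difference, log2 1.04 ± 0.48 in Th-gated cells, had an adjusted p of 0.191 in limma.

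The order of the levels was tested pair by pair in the same limma fit, and 39 of 70 differences passed, 9 for Scn11a, 8 for Scn8a, 7 for Scn10a, 6 each for Scn1a and Scn9a, 3 for Scn7a and 0 for Scn3a. From high to low, Scn1a ran Pvalb, Nefh, Th, Tac1, Mrgprd. Of its neighbours only Nefh and Th differed (adjusted p = 0.00108), while Pvalb and Nefh did not pass (0.564). Scn8a ran in the same order, with Nefh above Th (adjusted p = 0.0277) and Th above Tac1 (0.00887), and with no call between Pvalb and Nefh (0.633) or Tac1 and Mrgprd (0.897). Scn9a ran Th, Mrgprd, Nefh, Tac1, Pvalb, and of its neighbours only Tac1 and Pvalb differed (adjusted p = 1.57e-05). Scn10a ran Mrgprd, Tac1, Th, Nefh, Pvalb. Its steps from Th to Nefh (adjusted p = 5.22e-04) and Nefh to Pvalb (4.69e-04) passed, and those from Mrgprd to Tac1 (0.173) and Tac1 to Th (0.971) did not. Scn11a ran Mrgprd, Th, Tac1, Nefh, Pvalb, and all steps passed (adjusted p = 0.00171, 3.88e-04 and 0.0482) except that from Th to Tac1 (0.755). Scn7a ran Th, Nefh, Pvalb, Tac1, Mrgprd with no call between neighbours. Its 3 calls were Th above Mrgprd and above Pvalb, and Nefh above Mrgprd. Scn3a ran Th, Tac1, Nefh, Pvalb, Mrgprd with no call at all.

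By pair of gates, the members called numbered 6 between Th- and Pvalb-gated cells (all genes: 17.4%), 5 between Th and Nefh (8.88%), 5 between Mrgprd and Pvalb (19%), 5 between Mrgprd and Nefh (11.7%) and 5 between Tac1 and Pvalb (12%). They numbered 4 between Tac1 and Nefh (5.98%), 3 between Th and Mrgprd (6.61%), 3 between Pvalb and Nefh (3.63%), 2 between Th and Tac1 (6.12%) and 1 between Mrgprd and Tac1 (4.16%). The 3 calls between the myelinated-neuron gates were Scn9a, lower in Pvalb-gated cells by log2 -2.04 ± 0.27, Scn10a (-2.80 ± 0.49) and Scn11a (-1.49 ± 0.44). Scn1a and Scn8a differed between them by 0.75 ± 0.52 and 0.61 ± 0.49, which did not pass. Between the nociceptor gates of Mrgprd and Tac1, Scn11a alone passed, higher in Mrgprd-gated cells by 2.40 ± 0.53.

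As shares of the 7 genes' summed RPM, Scn10a with Scn11a made up 74.8% ± 6.2 in Mrgprd-gated, 52.6% ± 5.5 in Tac1-gated, 29.1% ± 10.7 in Th-gated, 8.67% ± 5.47 in Nefh-gated and 1.03% ± 1.17 in Pvalb-gated cells (SD over 5 preparations, 3 for Tac1). The summed level itself was 2487 ± 738, 1225 ± 273, 2014 ± 552, 1186 ± 120.6 and 839 ± 163.3 RPM in those gates. In Pvalb-gated cells Scn1a gave 32.5%, Scn8a 28% and Scn7a 27.7% of it. In Nefh-gated cells the largest shares were Scn7a with 39% and Scn9a with 25.6%, and in Th-gated cells Scn9a with 35.1% and Scn7a with 29.9%. The Nefh-gated share of Scn10a with Scn11a was 20.6% when the gate cut was lowered to 0.1 of the percentile.

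**Figure D3:**
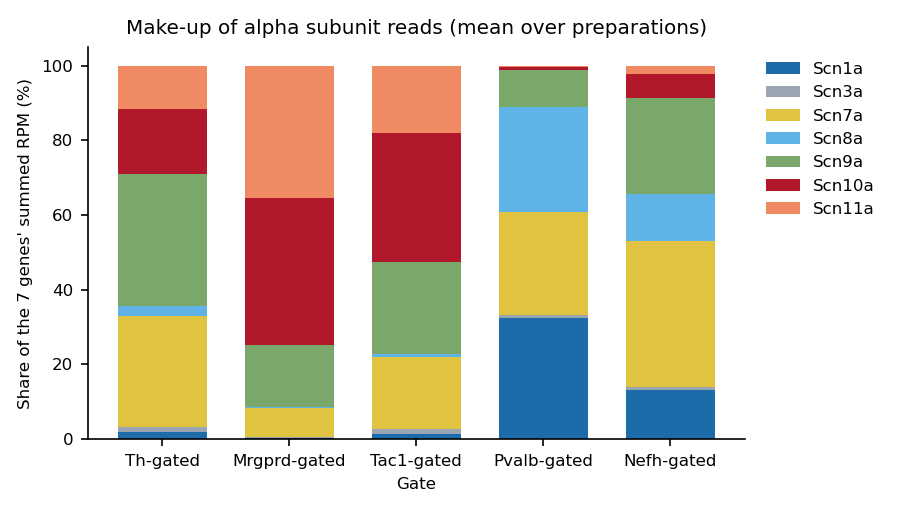
Share of each gene in the summed RPM of the 7 genes, by gate, as the mean over preparations. Scn10a and Scn11a fill 74.8% of the Mrgprd-gated bar and 1.03% of the Pvalb-gated bar, where Scn1a, Scn7a and Scn8a fill most.

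Detection, the share of cells with a value above 0, gave the same picture cell by cell. Scn10a and Scn11a were each above 0 in 95 of 99 Mrgprd-gated cells, 96.0% (95% Wilson interval 90.1 to 98.4), and thinned to 5000 reads in 87.8% and 90.8%. In Pvalb-gated cells Scn10a was above 0 in 13 of 47, 27.7% (16.9 to 41.8), and thinned in 2 of 44, 4.55%. Scn11a was above 0 in 12 of 47 and thinned in 1 of 44, 2.27%. The thinned shares in the cells with mostly non-neuronal reads were 11.6% for Scn10a (5.07 to 24.5) and 4.65% for Scn11a (1.28 to 15.5). The Pvalb-gated intervals, 1.26 to 15.1 and 0.40 to 11.8, overlapped these. Those cells came from sessions B and C only, and 1 of them held 1140 RPM of Scn10a. The level of free RNA in Pvalb-gated cells was not measured. In Nefh-gated cells thinning took the share from 56.5% to 14.6% for Scn10a and from 51.1% to 8.99% for Scn11a, so that most of their detection rested on values too low to be seen at 5000 reads. Their median Scn10a over cells was 0.807 RPM and the highest 1466 RPM.

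Scn1a was above 0 in 89.4% of Pvalb-gated and 88% of Nefh-gated cells (thinned 56.8% and 52.8%), against 18.2% of Mrgprd-gated cells (thinned 5.1%). Scn8a was above 0 in 85.1% and 89.1% (thinned 61.4% and 41.6%), against 16.2% (thinned 3.06%). Scn9a was above 0 in 94.4% of Th-gated, 93.9% of Mrgprd-gated, 92.4% of Nefh-gated, 81.4% of Tac1-gated and 72.3% of Pvalb-gated cells. Thinned, the last was 31.8% and the others lay between 62.9% and 83.5%. Scn3a ranged from 10.2% in Tac1-gated to 29.6% in Th-gated cells, and was at most 9.71% when thinned. Of 24 empty or medium wells with recovered reads, with a median of 2956 reads, Scn11a had reads in 7 (26 reads in all), Scn10a in 6 (20), Scn9a in 3, Scn7a in 2, Scn8a in 1, and Scn1a and Scn3a in none. Intervals pool the cells of all preparations as if independent, so they cover counting error only and not the spread between preparations. As deposited, Scn10a ran over preparations from 0% to 46.7% in Pvalb-gated and from 88.9% to 100% in Mrgprd-gated cells. The values are reads, and the labels name no molecular identifier.

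**Figure D4:**
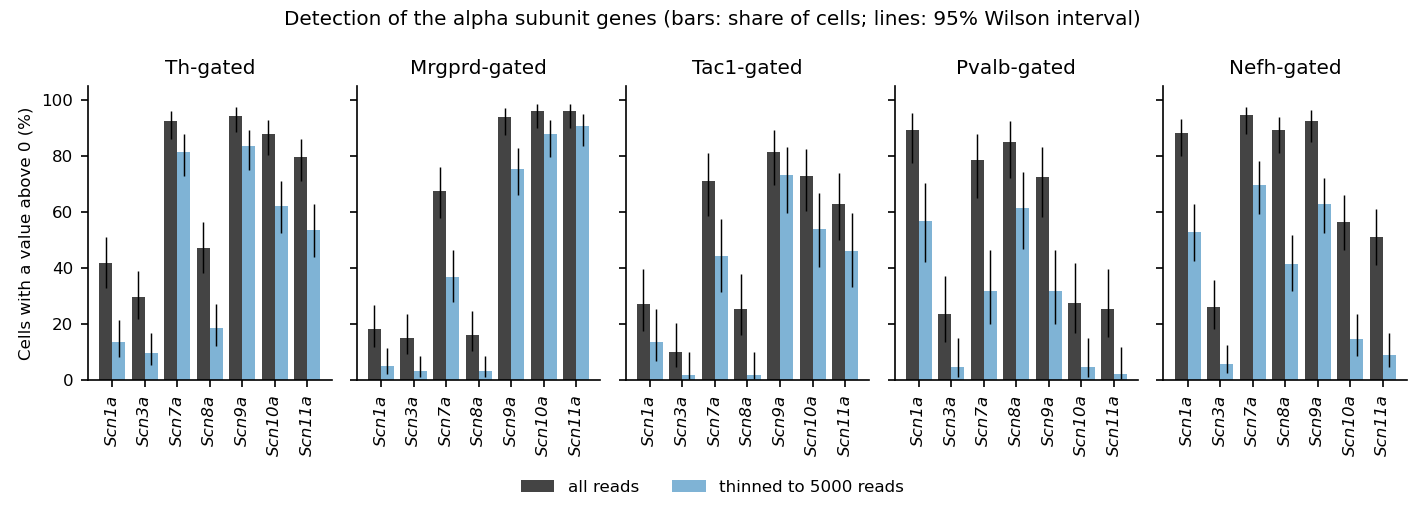
Share of cells with a value above 0, by gate and gene, from all reads (dark grey) and after thinning each cell to 5000 reads (blue), with 95% Wilson intervals over cells. Scn10a and Scn11a stand at 87.8% and 90.8% in Mrgprd-gated cells when thinned, and at 4.55% and 2.27% in Pvalb-gated cells.

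Most neurons held several of the genes at once. The median number above 0 was 5 in Th- and Nefh-gated cells and 4 in Mrgprd-, Tac1- and Pvalb-gated cells. All 7 were found in 12 Th-gated, 10 Nefh-gated, 2 Pvalb-gated and 1 Tac1-gated cell, and in no Mrgprd-gated cell. Thinned to 5000 reads, the medians were 3, 2, 3, 2.5 and 2 in that order and no gated cell had all 7. Scn10a and Scn11a were found together in 93.9% of Mrgprd-gated (thinned 81.6%), 73.1% of Th-gated (34%), 49.2% of Tac1-gated (26.9%), 40.2% of Nefh-gated (2.25%) and 10.6% of Pvalb-gated cells (none of 44). Scn1a and Scn8a were found together in 78.7% of Pvalb-gated (thinned 36.4%) and 81.5% of Nefh-gated (22.5%) but 4.04% of Mrgprd-gated cells (1.02%). Both Scn1a and Scn10a were above 0 in 49 of 92 Nefh-gated cells, and thinned in 4 of 89.

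Within a gate and session the genes varied together only loosely. Over the 9 sets of 20 or more cells, Spearman's rho of Scn10a with Scn11a had a median of 0.24, from -0.086 in the 22 Pvalb-gated cells of session A to 0.63 in the 42 Mrgprd-gated cells of session A. It was 0.24 in the 39 Mrgprd-gated cells of session C, and 0.40 and 0.46 in the Nefh-gated cells of sessions A and B. In the Pvalb-gated set at the low end, 0 of 22 cells held both genes. Scn1a with Scn8a had a median of 0.26 (-0.15 to 0.49). The ends of that range came from sets where 0 of 39 cells (Mrgprd-gated, session C) and 1 of 23 (Tac1-gated, session A) held both. In the Pvalb-gated cells of session A rho was 0.43, and in the Nefh-gated cells of sessions A and B 0.025 and 0.37. Medians of the other pairs lay between 0.03 and 0.23. Cells of a set share a session and differ in depth, and Scn1a itself had a rho of 0.54 with the number of reads in Nefh-gated cells of session A. These values are descriptions, with no test.

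**Figure D5:**
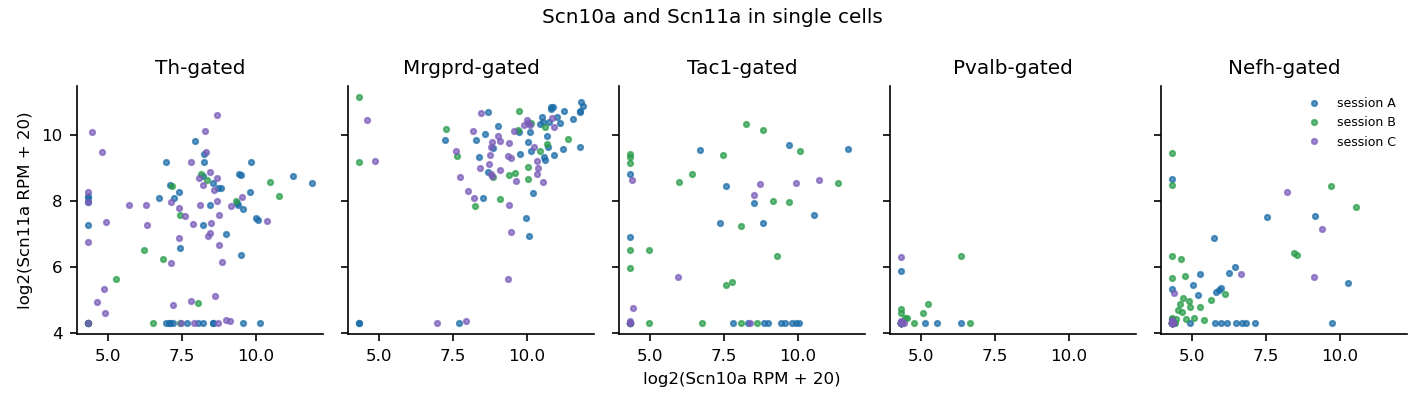
Scn10a against Scn11a in single cells, each as log2(RPM + 20), by gate and session. Mrgprd-gated cells lie high on both axes, Pvalb-gated cells low on both, and Th-, Tac1- and Nefh-gated cells spread along both axes with some cells high for only 1 gene.

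Across the 23 means, centred on each preparation, the genes formed opposite groups. Scn10a with Scn11a had a Pearson r of 0.95 and Scn1a with Scn8a 0.91, while Scn1a with Scn10a had -0.88 and Scn8a with Scn11a -0.84. Scn9a had 0.80 with Scn10a and -0.64 with Scn1a, and Scn7a and Scn3a had at most 0.40 with any other. The means share libraries, depth and gates, so these are descriptions. Outside the family, the genes most like Scn10a were Ldb2 (0.97), Syt9 (0.97) and Prdm12 (0.96), and those most like Scn11a Lgals9 (0.96), Lifr (0.95) and Prkcd (0.95). Scn1a was nearest to Kcna1 (0.95), Edil3 (0.95) and Pcdh7 (0.94), and Scn8a to Fam57b (0.94), Cplx1 (0.93) and Cntn1 (0.93). Kcna1, a juxtaparanodal potassium channel gene, averaged 566 RPM in Pvalb-gated and 634 RPM in Nefh-gated cells against 30.2 RPM in Mrgprd-gated cells. Scn9a was nearest to Nsg2 (0.94), Sdcbp (0.93) and Tusc5 (0.92), Scn7a to A4galt (0.87), Hspb1 (0.84) and 1110032F04Rik (0.83), and Scn3a to Arhgap33 (0.73), Polr2g (0.73) and Zkscan14 (0.71).

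Of the beta subunit genes, whose products are single-span partners of the pore, Scn2b, Scn3b and Scn4b are given here. Scn4b was higher in both Pvalb-gated (log2 2.04 ± 0.41) and Nefh-gated cells (2.503 ± 0.41). Scn2b and Scn3b were higher in Th-gated cells (2.30 ± 0.47 and 2.73 ± 0.42) and lower in Pvalb-gated cells (-2.44 ± 0.47 and -1.88 ± 0.42). In Mrgprd-gated cells Scn4b (-2.11 ± 0.41) and Scn2b (-1.46 ± 0.47) were lower. In Tac1-gated cells none of these 3 passed, with a difference of 1.75 ± 0.60 for Scn2b (adjusted p = 0.0886 in limma). The lowest of their differences in Th- and Nefh-gated cells, Scn4b (-1.24 ± 0.41) and Scn3b (-1.31 ± 0.42), did not pass either (0.0506 and 0.0626). Of the other alpha genes, Scn2a1 (Nav1.2) passed the filter on low values and was called in no gate, and Scn4a (Nav1.4) averaged at most 3.82 RPM.

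Of 18 listed channel partners, 14 were tested. Of all genes tested, 5.91% were higher and 3.41% lower in Th-gated, and 5.63% and 5.56% in Mrgprd-gated cells. These shares were 1.96% and 2.28% in Tac1-gated, 7.84% and 8.87% in Pvalb-gated, and 3.84% and 1.45% in Nefh-gated cells. In Th-gated cells 5 were higher and 3 lower, from Fgf12, which encodes a homologous factor (log2 1.68 ± 0.21), to Tmem233 (-2.61 ± 0.40). In Mrgprd-gated cells 6 were higher and 3 lower, from Tmem233 (5.51 ± 0.40) to the paranodal and nodal adhesion gene Nfasc (-2.41 ± 0.46). Tac1-gated cells had 2 higher and 2 lower, from Fgf13 (1.78 ± 0.32) to Cntn1 (-2.19 ± 0.34). Pvalb-gated cells had 2 higher and 6 lower, from Nfasc (2.22 ± 0.46) to Tmem233 (-3.35 ± 0.40), and Nefh-gated cells 3 higher and 1 lower, from Cntn1 (2.05 ± 0.27) to Tmem233 (-1.26 ± 0.40, adjusted p = 0.0572 in limma). The 1 that fell there, named after its values were seen, was Ank3, the ankyrin of the axon initial segment (-1.26 ± 0.25). Tmem233, a transmembrane protein that binds sodium channels, was 1577 ± 1140 RPM in Mrgprd-gated and 6.04 ± 7.05 RPM in Pvalb-gated cells. Fgf13 was 688 ± 166.2 RPM in Mrgprd-gated and 717 ± 193.9 RPM in Tac1-gated cells, against 107.1 ± 40.7 RPM in Pvalb-gated cells.

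The median log2 difference of the 7 genes was 1.12 in Th-gated, -0.28 in Mrgprd-gated, -0.14 in Tac1-gated, -0.63 in Pvalb-gated and 0.11 in Nefh-gated cells, against 0.12, 0.03, -0.19, -0.09 and 0.07 over all genes. Of the calls over all genes, 63.4% were higher in Th-gated, 46.3% in Tac1-gated and 72.6% in Nefh-gated cells. Centring each mean on the median gene turned these shares to 46.4%, 67.7% and 60.9%, and no called difference of the 7 genes changed direction.

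Cooling during picking went with no call among the 7 genes. Session C was set against sessions A and B with sex as a covariate (limma, 2 residual degrees of freedom), on the mean of the log2 values over the Th, Mrgprd, Pvalb and Nefh gates. Differences ran from -0.20 ± 0.37 for Scn9a to 0.21 ± 0.36 for Scn11a. None of the 7 passed an adjusted or an unadjusted p of 0.05, and 1.16% of all genes passed the adjusted one. Cooling, session and depth cannot be told apart here.

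Females and males were compared within sessions A and C (limma, 1 residual degree of freedom), and none of the 7 was called, against 0.122% of all genes. Scn11a alone had an unadjusted p under 0.05, at log2 -0.86 ± 0.43 in females (adjusted p = 0.624). That p uses a variance moderated by other genes, so it does not measure the spread of Scn11a alone. On the mean over the 4 gates, log2(mean RPM + 5) of Scn10a was 7.50 and 5.72 in session A males and females and 6.40 and 6.80 in session C males and females, with 7.24 in session B males. Scn9a was 8.18 and 8.69, then 8.36 and 7.69, with 7.75 in session B males. For both genes the sexes were ordered oppositely in the 2 sessions.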

How the data were processed

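The authors mapped reads with Bowtie to mouse build mm9, per the submitters' processing notes (versions and other settings are not given in the sources used here), and deposited RPM per gene and well. The labels name a well barcode and no molecular identifier. In 4 deposited columns from empty or medium wells all values were whole, a score of unknown scale that was not used. Gene copies at several loci were summed. Whole reads were recovered from the step of the RPM values in 841 columns, and 99.5% of their values were whole within 0.1. No doublet caller was run, and wells labelled with more than 1 cell were left out.

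Cells were gated by Th, Mrgprd, Tac1, Pvalb and Nefh as described. Mean RPM over 3 or more cells of a gate and preparation gave 23 means. Genes averaging at least 5 RPM entered the fit in limma 3.58.1 (R 4.3.3, trend and robust) as log2(mean RPM + 5) with preparation as a block, because all gates come from the same preparations (14 residual degrees of freedom). Tests were two-sided with Benjamini-Hochberg adjustment, and the script was tested on simulated data. On summed recovered reads, edgeR 4.0.16 called 536, 792, 186, 1219 and 430 genes in the Th, Mrgprd, Tac1, Pvalb and Nefh contrasts. Thinning used 1 draw (seed 1) and left 386 of 405 gated cells.

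The members and the gene lists were chosen with earlier results of these data known. Named genes were all members, the 3 genes outside the family most correlated with each over the means, and, of the lists of other alpha, beta and partner genes, those with the largest and smallest difference in a gate. Sptbn4, a listed partner, was not analysed here, and some listed beta subunit, other alpha and glial genes are not reported here. Alternatives were the pseudocount, the filter, centring, the gate cut, the cell filter, thinning, leaving out each preparation or the block, and edgeR. Coordinates are of the promoter table's build only.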

Additional observations from a re-analysis of the deposited data

Results flagged for a closer look

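Of 28 groups of 5 preparation means tested for a value far from the rest, 5 had one by Dixon's criterion, and chance alone gives about 1 in 20 such groups. In 4 of them the value was that of session A females. Scn7a was 1368 RPM there in Th-gated cells (others 305 to 553) and 577 RPM in Mrgprd-gated cells (others 74.1 to 157.9), Scn9a was 1166 RPM in Th-gated cells (others 528 to 688), and Scn1a was 351 RPM in Pvalb-gated cells (others 224.6 to 253). The other was Scn7a in Pvalb-gated cells of session C females, 571 RPM from 3 cells (others 102.1 to 224.7). Medians over the 9 Th-gated cells of session A females were 705.3 RPM for Scn7a (others at most 438.9) and 1009 RPM for Scn9a (others at most 722.3). Over their 10 Mrgprd-gated cells the Scn7a median was 107.8 RPM, against 89.4 RPM in session C females. Over their 8 Pvalb-gated cells the Scn1a median was 225.4 RPM, within the 172.6 to 282.6 RPM of the others, and the highest cell held 1574 RPM.

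The female minus male difference had opposite signs in sessions A and C for Scn9a, log2 0.51 and -0.67, and for Scn10a, log2 -1.78 and 0.40. With 1 preparation per sex and session, the difference between sessions was not tested.

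No comparison used the 33 wells that held several cells per their labels. Scn1a was above 0 in 24.2% of them, Scn3a in 12.1%, Scn7a in 72.7%, Scn8a in 36.4%, Scn9a in 72.7%, Scn10a in 60.6% and Scn11a in 51.5%. In the empty and medium wells these shares were 0%, 0%, 8.33%, 4.17%, 12.5%, 25% and 29.2%.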

How the results depend on the processing

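Recomputing the 20 called differences of the 7 genes under 360 alternative fits kept direction and call in 320, kept direction but lost the call in 40, and reversed none. The 5 calls in Pvalb-gated cells held in every alternative run. Of 445 fits of the 29 differences that were not called, 57 reversed and 11 became calls: Scn10a higher in Tac1-gated cells in 6, Scn7a lower in Pvalb-gated cells in 3 (adjusted p = 0.00477 without session C females, 0.0129 with 2000 or more genes per cell and 0.0158 when thinned, limma), and, with 2000 or more genes per cell, Scn7a higher in Nefh-gated cells (0.0192) and Scn11a higher in Tac1-gated cells (0.0497). Centring moved all log2 differences down by 0.15 in Th-gated and 0.11 in Nefh-gated cells and up by 0.21 in Tac1-gated cells, 0.11 in Pvalb-gated cells and 0.28 in females.

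Only values that changed their call, direction or count are given by setting, with calls as a percentage of the genes tested. The main fit called 9.31%, 11.2%, 4.24%, 16.7% and 5.3% of genes in Th-, Mrgprd-, Tac1-, Pvalb- and Nefh-gated cells. Where a setting gives no share for a gate, its number of genes called stayed within a factor of 1.5 of the main fit. Counts of members are to be read beside these. With a pseudocount of 1 RPM, the calls were 0.0508% of genes between the sexes, 1 member in Tac1-gated cells, and the log2 differences were 0.011 for Scn1a with cooling, -0.10 for Scn8a with cooling. With a pseudocount of 20 RPM, the calls were 0.742% of genes with cooling, and the log2 differences were -0.15 for Scn8a in Th-gated cells, -0.031 for Scn3a in Nefh-gated cells. With no filter on low genes, the calls were 0% of genes with cooling, 0% of genes between the sexes, 2 members in Th-gated cells, 1 member in Tac1-gated cells. With a minimum mean of 20 RPM, the calls were 0.0332% of genes between the sexes. With pseudobulks centred on the median gene, the calls were 0.0508% of genes between the sexes, and the log2 differences were 0.072 for Scn7a in Tac1-gated cells, -0.047 for Scn3a in Nefh-gated cells, 0.20 for Scn9a in females. With the gate cut at 0.1 of the percentile, the calls were 3.25% of genes in Nefh-gated cells, 0.0608% of genes between the sexes, 2 members in Th-gated cells, 1 member in Tac1-gated cells, 2 members in Nefh-gated cells, the Scn10a and Scn11a share in Tac1-gated cells was 45.2%, the Scn10a and Scn11a share in Nefh-gated cells was 20.6%, and the log2 differences were -0.46 for Scn8a in Th-gated cells, 0.70 for Scn3a in Tac1-gated cells, -0.41 for Scn11a with cooling, 0.092 for Scn1a in females, 0.067 for Scn9a in females. With the gate cut at 0.5 of the percentile, the calls were 0.0102% of genes between the sexes, and the log2 differences were -0.027 for Scn9a in Tac1-gated cells, -0.67 for Scn3a in Nefh-gated cells, -0.054 for Scn9a in Nefh-gated cells, 0.22 for Scn1a with cooling, -0.012 for Scn3a with cooling, 0.076 for Scn7a with cooling, -0.056 for Scn11a with cooling. With cells over several cuts placed in their highest gate, the calls were 0.6% of genes with cooling, 0.0508% of genes between the sexes, and the log2 differences were 0.027 for Scn7a in Tac1-gated cells. With 2000 or more genes per cell, the calls were 6.89% of genes in Tac1-gated cells, 0.51% of genes with cooling, and the log2 differences were -0.17 for Scn8a in Th-gated cells, 0.18 for Scn3a in Tac1-gated cells, -0.23 for Scn3a in Nefh-gated cells, -0.055 for Scn8a with cooling, 0.28 for Scn10a with cooling, 0.25 for Scn9a in females. With cells thinned to 5000 reads, the calls were 4.2% of genes in Th-gated cells, 5.49% of genes in Mrgprd-gated cells, 1.81% of genes in Tac1-gated cells, 7.36% of genes in Pvalb-gated cells, 2.56% of genes in Nefh-gated cells, 0.0102% of genes between the sexes, 1 member in Tac1-gated cells, the Scn10a and Scn11a share in Tac1-gated cells was 46.1%, and the log2 differences were 0.32 for Scn7a in Tac1-gated cells, 0.021 for Scn3a in Pvalb-gated cells, -0.12 for Scn9a in Nefh-gated cells, 0.086 for Scn10a with cooling, -0.029 for Scn11a with cooling, 0.38 for Scn8a in females, 0.26 for Scn9a in females. Without the preparation block (no replicate block), the calls were 3.47% of genes in Nefh-gated cells, 1 member in Tac1-gated cells, and the log2 differences were -0.0034 for Scn3a in Nefh-gated cells. With edgeR quasi-likelihood fits of summed recovered reads, the calls were 4.12% of genes in Th-gated cells, 1.43% of genes in Tac1-gated cells, 3 members in Mrgprd-gated cells, 0 members in Tac1-gated cells, 2 members in Nefh-gated cells. Without session A, an alternative chosen after seeing the data, the calls were 4.47% of genes in Th-gated cells, 5.41% of genes in Mrgprd-gated cells, 2.24% of genes in Tac1-gated cells, 10.3% of genes in Pvalb-gated cells, 1.9% of genes in Nefh-gated cells, and the log2 differences were 0.61 for Scn3a in Tac1-gated cells, -0.012 for Scn9a in Tac1-gated cells, -0.31 for Scn3a in Nefh-gated cells.

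Leaving out 1 preparation at a time, the share of genes called ran in Th-gated cells from 5.84% (without session B males) to 8.24% (without session C females), in Mrgprd-gated cells from 6.85% (without session A males) to 10.6% (without session C females), in Tac1-gated cells from 1.26% (without session C males) to 5.65% (without session C females), in Nefh-gated cells from 2.98% (without session A males) to 4.77% (without session C females), with cooling from 0% (without session A females) to 5.01% (without session B males), and from 0 (without session C males) to 3 (without session A females) of the members in Tac1-gated cells. The log2 differences ran for Scn3a in Tac1-gated cells from -1.46 to 0.61, Scn9a in Tac1-gated cells from -0.012 to 0.31, Scn3a in Nefh-gated cells from -0.25 to 0.48, Scn1a with cooling from -0.49 to 0.44, Scn10a with cooling from -0.97 to 1.07, Scn3a with cooling from -0.28 to 0.83, Scn7a with cooling from -0.71 to 0.33, Scn9a with cooling from -1.003 to 0.39, Scn11a with cooling from -0.023 to 0.53, Scn7a in Tac1-gated cells from -0.47 to 0.15, Scn8a with cooling from -0.12 to 0.25. For the sex comparison only the fit without session B males was possible, and for sex and cooling no paired or edgeR alternative was run. The preparation block was kept because all gates come from the same preparations, and its other effects on calls are beside the results. The causes of these changes were not tested. At 5000 reads per cell Scn3a was above 0 in at most 9.71% of the cells of a gate, so differences in it were hardly detectable at that depth.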
